A study of Mus musculus with 4 samples.

Results

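The comparison described here is that of podocytes carrying a hairpin against Jaml (sh-JAML) with podocytes carrying a control hairpin (sh-NC), both without added glucose. It uses 2 of the 4 RNA-seq libraries of the series, 1 per group. The other 2 libraries come from the same hairpin cells kept in high glucose (sh-JAML/HG and sh-NC/HG), which is D-glucose at a final 40 mmol/L for 24 h by the design text. All cells are MPC, a conditionally immortalised mouse podocyte line, and all groups grew at 33 °C with interferon-gamma before 7 days of differentiation without it at 37 °C. The series title places the work in lipid metabolism of podocytes in diabetic kidney disease, and this pair gives the difference between the hairpin cells without added glucose. The members are the 14187 genes, of 56393 in the table, whose count averaged 50 or more across the 4 libraries. The labels do not say whether a hairpin line is 1 clone or a pool. With 1 library per group no spread between cultures is known, so each ratio is a description of these libraries, and each interval covers counting error only.

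Podocytes cover the outer side of the capillaries in the glomerulus, and their foot processes, held by actin bundles and by integrins bound to the basement membrane, carry the slit diaphragm of the filter. Jaml (junctional adhesion molecule-like) is a transmembrane protein of the immunoglobulin superfamily, best known on leukocytes, where it binds the epithelial receptor Cxadr. Sterol and fatty acid synthesis are driven by the SREBP transcription factors: SREBP2, from Srebf2, acts mainly on cholesterol genes, and SREBP1, from Srebf1, mainly on fatty acid genes. When membrane sterol is low, SREBPs are cleaved, enter the nucleus and raise transcription of their targets.

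The libraries held 79330461 units of estimated count in sh-JAML and 80599238 in sh-NC, against 83551812 in sh-JAML/HG and 94341975 in sh-NC/HG. About 4 units stood for 1 sequenced fragment. Levels below are CPM after TMM scaling, which divides each count by its library's total and sets the bulk of genes equal between libraries, with no correction for gene length. Jaml had a count of 0 in all 4 libraries, where 0 allows up to 0.150 CPM in sh-JAML, against 0.151 CPM in sh-NC, so its count gives no check of the hairpin label. Of 11 podocyte markers 8 were measured, summing to 1604 CPM in sh-JAML, against 1809 CPM in sh-NC, but Tcf21 was at 0 in both, and the slit diaphragm gene Nphs1 had 0.224 CPM in sh-JAML, against 0.440 CPM in sh-NC. Leukocyte markers, 1 of 7 measured, summed to 3.78 CPM in sh-JAML, against 3.88 CPM in sh-NC. No endothelial marker of 5 was measured. Of 7 tubule markers 4 were measured, with Umod and Slc34a1 at 0, and they summed to 1076 CPM in sh-JAML, against 1053 CPM in sh-NC. Mesangial and fibroblast markers summed to 147 CPM in sh-JAML, against 167 CPM in sh-NC, and parietal epithelial markers to 483 CPM in sh-JAML, against 480 CPM in sh-NC. The 4 globin genes summed to 41.3 CPM in sh-JAML, against 37.2 CPM in sh-NC, against 0.248 CPM in sh-JAML/HG and 0.471 CPM in sh-NC/HG. The marker sets above are short, and longer lists held more measured markers. Of 18 leukocyte markers 5 were measured, with Csf1r at 55.9 CPM in sh-JAML, against 62.1 CPM in sh-NC. Of 16 endothelial markers 4 were measured, with Ehd3 at 17.0 CPM in sh-JAML, against 20.5 CPM in sh-NC. The tubule marker Aqp1, outside the short set, had 280 CPM in sh-JAML, against 292 CPM in sh-NC. In bulk RNA, fewer cells of a type and less RNA per cell cannot be told apart.

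The hairpin pair differed little. Ratios of sh-JAML over sh-NC had quartiles of -0.11 and 0.12 on the log2 scale, and 92.0% of genes lay within 1.5-fold. At least 2-fold higher in sh-JAML were 186 genes (1.31% of those measured), and at least 2-fold lower 198 genes (1.40%). At 1.5-fold the counts were 585 higher (4.12%) and 553 lower (3.90%). Ratios were above 0 for 7141 genes (50.3%) and below 0 for 7040 (49.6%). The pair in high glucose, which shares no library with this one, was wider: 399 genes (2.81%) were at least 2-fold higher in sh-JAML/HG than in sh-NC/HG, 678 (4.78%) at least 2-fold lower, and 81.8% lay within 1.5-fold. Over the 14187 genes Spearman's rho between the ratios of the 2 pairs was 0.039 and Pearson's r 0.0066, a description across genes, which are not independent.

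Most genes far apart were sparsely counted. Among 2323 genes averaging under 200 units over sh-JAML and sh-NC, 10.8% were at least 2-fold apart, compared with 2.38% of 2351 genes from 200 to 1000, 1.07% of 5126 from 1000 to 5000, 0.601% of 3663 from 5000 to 20000, and 0 of the 724 above that. Of the 2-fold genes 140 shared at least 10% of their exon bases with another gene, where reads can be given to either: 39.2% of the higher and 33.8% of the lower genes, against 17.2% of all genes measured. Exosc6, a subunit of the RNA exosome, had a log2 ratio of -4.02 and shared 100% of its exon bases, and the clustered protocadherin Pcdhga9 had 5.90 and shared 37.9%, so the reads of neither can be told apart from those of its overlapping genes. Summed with those genes, the log2 ratios were -0.063 and -0.032. Of the 140 genes summed in this way, 111 lay under 1.5-fold and 17 were at least 2-fold apart. An abundant overlapping gene can carry such a sum. Among 10006 genes averaging 200 units or more with less than 10% shared exon bases, 33 (0.330%) were at least 2-fold higher in sh-JAML and 53 (0.530%) at least 2-fold lower. In this set both directions were rare, with more genes on the lower side.

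**Figure D1:**
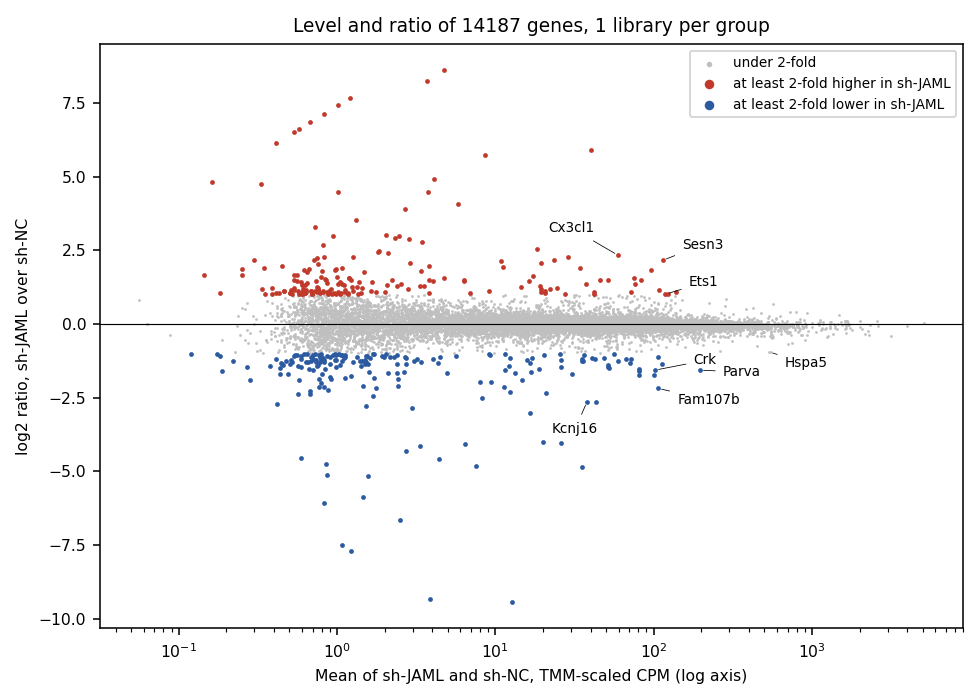
Each point is 1 of 14187 genes, with its mean TMM-scaled CPM over sh-JAML and sh-NC on the log x axis and its log2 ratio of sh-JAML over sh-NC (prior count of 1) on the y axis. Red points are the 186 genes at least 2-fold higher in sh-JAML and blue points the 198 at least 2-fold lower; they thin out to the right, and a few well-counted genes are named.

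Among genes averaging 5000 units or more, the highest ratio belonged to Sesn3, a sestrin that restrains mTORC1 and is known as a FOXO target. Sesn3 (chr9:14275067-14333101, mm10) had 186 CPM in sh-JAML, against 41.7 CPM in sh-NC, with 166 CPM in sh-JAML/HG, against 203 CPM in sh-NC/HG. It was 4.47-fold higher in sh-JAML (95% counting interval 4.15 to 4.83), and the library that stood apart from the other 3 was sh-NC. Nek7, a kinase needed for the NLRP3 inflammasome, showed the same layout with 149 CPM in sh-JAML, against 42.0 CPM in sh-NC, with 147 CPM in sh-JAML/HG, against 113 CPM in sh-NC/HG (3.55-fold in the basal pair, 3.29 to 3.84). Pigk, the catalytic subunit of the GPI transamidase, had 110 CPM in sh-JAML, against 43.1 CPM in sh-NC, against 100.3 and 99.7 CPM in sh-JAML/HG and sh-NC/HG. Phf3, which binds RNA polymerase II, was 2.22-fold higher in sh-JAML (149 CPM, against 67.4 CPM in sh-NC), and the transcription factor Ets1 2.01-fold higher (158 CPM, against 78.7 CPM). For all 5 genes both high glucose libraries lay closer to sh-JAML than to sh-NC, the low library.

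Another layout had sh-JAML alone high. Cx3cl1 (chr8:94772009-94782427), the membrane-bound chemokine fractalkine, had 99.5 CPM in sh-JAML, against 19.8 CPM in sh-NC, with 17.7 CPM in sh-JAML/HG, against 20.7 CPM in sh-NC/HG. It was 5.03-fold higher in the basal pair (4.51 to 5.61) and did not stand apart in high glucose. Luzp1, an actin-associated leucine zipper protein, had 164 CPM in sh-JAML, against 80.6 CPM in sh-NC, with 79.6 CPM in sh-JAML/HG and 78.7 CPM in sh-NC/HG. Cd59a, an inhibitor of the complement membrane attack complex, had 56.5 CPM in sh-JAML, against 26.8 CPM in sh-NC, with 23.4 CPM in sh-JAML/HG and 20.2 CPM in sh-NC/HG. Prkacb, a catalytic subunit of protein kinase A, was high in sh-JAML (187 CPM, against 88.9 CPM in sh-NC) but low in sh-JAML/HG (90.6 CPM, against 201 CPM in sh-NC/HG), and the zinc finger gene Zfp7 had the same crossed order with 38.2 CPM in sh-JAML, 8.51 CPM in sh-NC, 8.65 CPM in sh-JAML/HG and 29.1 CPM in sh-NC/HG.

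Other genes followed the hairpin in both pairs. Emp1 (chr6:135362545-135383173), a tetraspan membrane protein of the PMP22 family, had 112 CPM in sh-JAML, against 38.02 CPM in sh-NC, with 125 CPM in sh-JAML/HG, against 41.9 CPM in sh-NC/HG. Its ratio was 2.95-fold in the basal pair (2.72 to 3.21) and 2.99-fold in high glucose (2.77 to 3.22). Sumo3, a ubiquitin-like modifier, had 122 CPM in sh-JAML, against 43.7 CPM in sh-NC, with 110 CPM in sh-JAML/HG and 35.7 CPM in sh-NC/HG. Ccnd3, cyclin D3, had 53.6 CPM in sh-JAML, against 20.7 CPM in sh-NC, with 54.6 CPM in sh-JAML/HG and 23.1 CPM in sh-NC/HG. Ncoa4, the receptor for autophagy of ferritin, was 2.10-fold higher in sh-JAML than in sh-NC (97.0 CPM, against 46.2 CPM) and 1.97-fold higher in sh-JAML/HG than in sh-NC/HG (98.5 CPM, against 49.99 CPM). For each of these genes both sh-JAML libraries were above both sh-NC libraries, whatever the glucose.

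On the lower side the hairpin-following genes were led by Fam107b (chr2:3570488-3782142), with 38.3 CPM in sh-JAML, against 174 CPM in sh-NC, with 40.6 CPM in sh-JAML/HG, against 165 CPM in sh-NC/HG. It was 4.55-fold lower in the basal pair (4.21 to 4.93) and 4.07-fold lower in high glucose. Dnmt3a (chr12:3806007-3914443), a de novo DNA methyltransferase, had 40.0 CPM in sh-JAML, against 121 CPM in sh-NC, with 41.4 CPM in sh-JAML/HG, against 121 CPM in sh-NC/HG. March8, a membrane-bound ubiquitin ligase, was 3.30-fold lower in sh-JAML (37.4 CPM, against 123 CPM in sh-NC) and 2.09-fold lower in sh-JAML/HG (48.9 CPM, against 102 CPM in sh-NC/HG). Il6st, the gp130 signalling receptor of the interleukin-6 family and the most abundant gene of this kind named here, had 379 CPM in sh-JAML, against 727 CPM in sh-NC, with 399 CPM in sh-JAML/HG, against 771 CPM in sh-NC/HG. Il6st was chosen after its values were seen.

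Several well-counted genes were high in sh-NC alone. Parva (chr7:112427505-112591692), alpha-parvin, which joins integrin-linked kinase to actin in focal adhesions, had 98.4 CPM in sh-JAML, against 292 CPM in sh-NC, with 124 CPM in sh-JAML/HG and 136 CPM in sh-NC/HG. It was 2.97-fold lower in the basal pair (2.82 to 3.12) and 1.09-fold lower in high glucose. Crk, an adaptor of focal adhesion signalling, had 51.1 CPM in sh-JAML, against 152 CPM in sh-NC, with 44.7 CPM in sh-JAML/HG and 55.8 CPM in sh-NC/HG. Lrrc8d, a subunit of the volume-regulated anion channel, had 11.9 CPM in sh-JAML, against 73.9 CPM in sh-NC, with 12.4 CPM in sh-JAML/HG and 11.9 CPM in sh-NC/HG. In each, sh-NC was the library apart from the other 3. The ligand Efna1 (27.6 CPM in sh-JAML, 77.5 CPM in sh-NC) and the insulin-like growth factor binding protein Igfbp2 (9.81 CPM, against 28.0 CPM) had this layout too, at 2.81-fold and 2.86-fold lower, with both high glucose libraries near the sh-JAML level.

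Other genes were low in sh-JAML alone. Eif4e, the cap-binding translation factor, had 40.4 CPM in sh-JAML, against 93.3 CPM in sh-NC, 83.4 CPM in sh-JAML/HG and 113 CPM in sh-NC/HG. Sar1a, the GTPase of COPII vesicles, had 62.5 CPM in sh-JAML, against 162 CPM in sh-NC, 151 CPM in sh-JAML/HG and 176 CPM in sh-NC/HG. Psd3 had 40.4 CPM in sh-JAML, against 101 CPM in sh-NC, with 126 CPM in sh-JAML/HG and 148 CPM in sh-NC/HG. In these 3 genes sh-JAML was the lowest of the 4 libraries. Kcnj16, an inwardly rectifying potassium channel subunit, was 6.23-fold lower in sh-JAML (10.5 CPM, against 65.4 CPM in sh-NC; 5.38 to 7.24) and 1.89-fold lower in sh-JAML/HG (23.7 CPM, against 44.8 CPM in sh-NC/HG). Wnt7b, a secreted Wnt ligand, had crossed order, with 46.9 CPM in sh-JAML, against 155 CPM in sh-NC, with 128 CPM in sh-JAML/HG, against 63.5 CPM in sh-NC/HG.

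**Figure D2:**
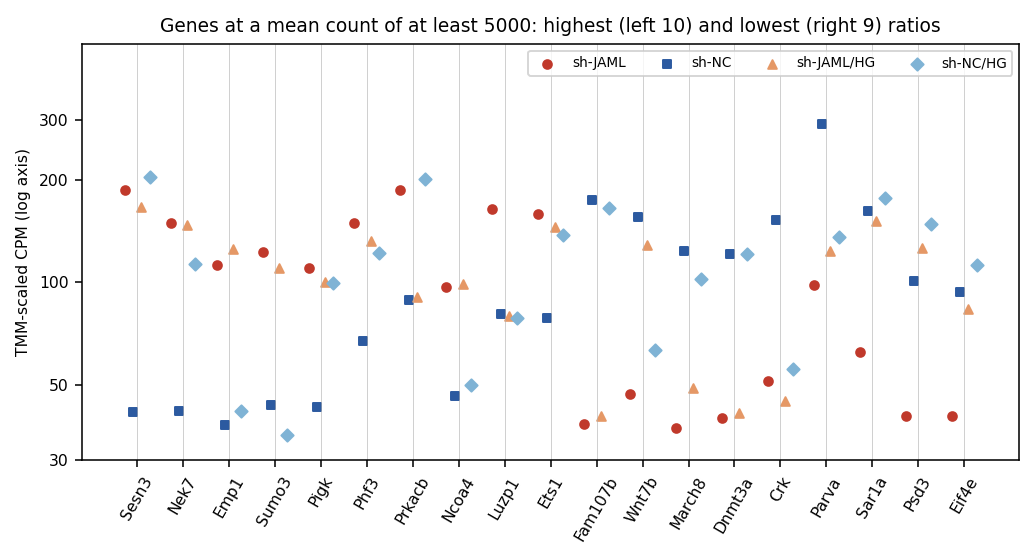
TMM-scaled CPM (log y axis) in each of the 4 libraries, 1 point per library, for the genes with the 10 highest and 9 of the 10 lowest ratios of sh-JAML over sh-NC averaging 5000 units or more (the tenth has no named role). Emp1, Sumo3, Ncoa4, Fam107b, March8 and Dnmt3a differ in the same direction by 1.97-fold or more in both pairs; for Sesn3 the sh-NC library lies far below the other 3.

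The layouts were counted over all 2-fold genes. Of the 186 higher genes, sh-JAML was at least 2-fold above each of the other 3 libraries in 18, and sh-NC at least 2-fold below each of the other 3 in 62. Of the 198 lower genes, sh-JAML was alone low by that measure in 54 and sh-NC alone high in 27. The count minimum is an average over the 4 libraries. A sparse gene low in 1 library passes it more easily than a sparse gene high in 1 library. The counts of these layouts can therefore be partly set by that minimum. At least 2-fold in the same direction in high glucose were 24 of the 186 higher genes (12.9%, and 6.02% of the 399 in that pair) and 48 of the 198 lower genes (24.2%, and 7.08% of the 678). In the opposite direction by at least 2-fold were 38 higher genes (20.4%) and 26 lower genes (13.1%). By this measure 4.78% of all 14187 genes were lower in sh-JAML/HG than in sh-NC/HG, and 2.81% were higher. The share of all genes with each layout was not counted. Most of these genes were sparse: 127 of the 186 and 124 of the 198 averaged under 200 units over sh-JAML and sh-NC. Within the well-counted set with little exon sharing, 4 of 33 higher genes kept their direction past 2-fold in high glucose, namely Ccnd3, Emp1, Sumo3 and Fn3k, a kinase that removes sugar adducts from proteins. Of 53 lower genes 6 did so, namely Fam107b, Dnmt3a, March8, Amigo1, Cenpx and 1 gene model without a named role. Past 2-fold in the opposite direction in high glucose were 2 of the 33 higher and 8 of the 53 lower genes. By the layout measure above, sh-JAML was alone high in 6 of these 33 genes and sh-NC alone low in 9. Of these 53 genes, sh-JAML was alone low in 14 and sh-NC alone high in 11. The layouts were thus closer in number here than among all 2-fold genes. How many of the 10006 genes of this set were past 2-fold in the pair in high glucose was not counted. Fn3k, Amigo1 and Cenpx were named after their values were seen.

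The cholesterol synthesis genes were lower in sh-JAML as a group, each by little. All 25 listed SREBP2 targets were measured, and 24 had ratios below 0, where 49.6% of all genes did. Their median log2 ratio was -0.35, against 0.0016 for all genes. None was 2-fold apart, and 1 was past 1.5-fold, the sterol reductase Tm7sf2 with 19.6 CPM in sh-JAML, against 29.5 CPM in sh-NC. Tm7sf2 was 1.51-fold lower (1.33 to 1.72) and shared 12.1% of its exon bases with another gene. In high glucose 23 of 25 were below 0 with a median of -0.28, and 22 were below 0 in both pairs. The promoters are shown because sterol genes are known to carry SREBP sites beside CCAAT boxes bound by NF-Y. Of the 25 genes 17 had a promoter in the RefSeq table, and 16 of these (94.1%) held CCAAT on either strand in the 250 bases before the start. The share was 37.5% of all 27025 genes with a promoter, measured here or not, and 64% (16 of 25) for the actin and SRF list. The sterol genes were listed as known SREBP2 targets, so their share describes the list and not the ratios. The element TCACNCCAC, on either strand, was in 1 of the 17, against 1.22% of all genes with a promoter, and in Hmgcs1, which holds both motifs, they lie apart. Shown in capitals are the CCAAT box, on either strand, and TCACNCCAC in Hmgcs1 (chr13:119690101-119690350, plus strand), Insig1 (chr5:28071162-28071411, plus strand) and Idi1 (chr13:8885356-8885605, plus strand), RefSeq, GRCm38.p6.
Hmgcs1: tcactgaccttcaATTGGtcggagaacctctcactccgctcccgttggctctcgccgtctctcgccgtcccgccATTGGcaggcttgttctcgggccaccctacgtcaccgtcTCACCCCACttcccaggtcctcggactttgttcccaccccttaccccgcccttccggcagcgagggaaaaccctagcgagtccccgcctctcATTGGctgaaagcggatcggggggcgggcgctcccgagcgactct
Insig1: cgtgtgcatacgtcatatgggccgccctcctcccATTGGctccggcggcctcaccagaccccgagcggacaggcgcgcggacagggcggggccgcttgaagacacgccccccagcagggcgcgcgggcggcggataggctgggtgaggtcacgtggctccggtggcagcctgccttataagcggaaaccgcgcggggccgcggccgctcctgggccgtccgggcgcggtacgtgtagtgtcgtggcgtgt
Idi1: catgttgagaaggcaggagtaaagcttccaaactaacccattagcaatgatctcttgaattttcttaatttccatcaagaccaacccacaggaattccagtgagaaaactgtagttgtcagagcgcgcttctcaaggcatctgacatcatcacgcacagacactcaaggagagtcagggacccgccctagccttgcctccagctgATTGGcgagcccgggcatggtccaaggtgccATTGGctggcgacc

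A match is only these letters in this window. Hmgcs1, which makes HMG-CoA, holds CCAAT 3 times and the sterol element 1 time, and had 407 CPM in sh-JAML, against 543 CPM in sh-NC, with 571 CPM in sh-JAML/HG, against 688 CPM in sh-NC/HG. Idi1, isopentenyl diphosphate isomerase, had 154 CPM in sh-JAML, against 185.5 CPM in sh-NC, and Sqle, squalene epoxidase, 128 CPM in sh-JAML, against 168 CPM in sh-NC. The later steps had ratios of like size, with log2 values of -0.43 for Cyp51, -0.38 for Nsdhl and -0.45 for Hsd17b7. Insig1, the sterol-sensing retention protein of the SREBP complex, had 250 CPM in sh-JAML, against 338 CPM in sh-NC, and Srebf2 itself was 1.18-fold lower in sh-JAML (504 CPM, against 593 CPM in sh-NC). The exceptions were Fdft1, squalene synthase, with 148 CPM in sh-JAML, against 142 CPM in sh-NC, and Msmo1, a sterol demethylase step, with 203 CPM in sh-JAML, against 204 CPM in sh-NC. Both were lower in sh-JAML/HG than in sh-NC/HG, Fdft1 with 124 CPM against 172 CPM and Msmo1 with 169 CPM against 236 CPM. Fdft1 shared 18.3% of its exon bases.

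**Figure D3:**
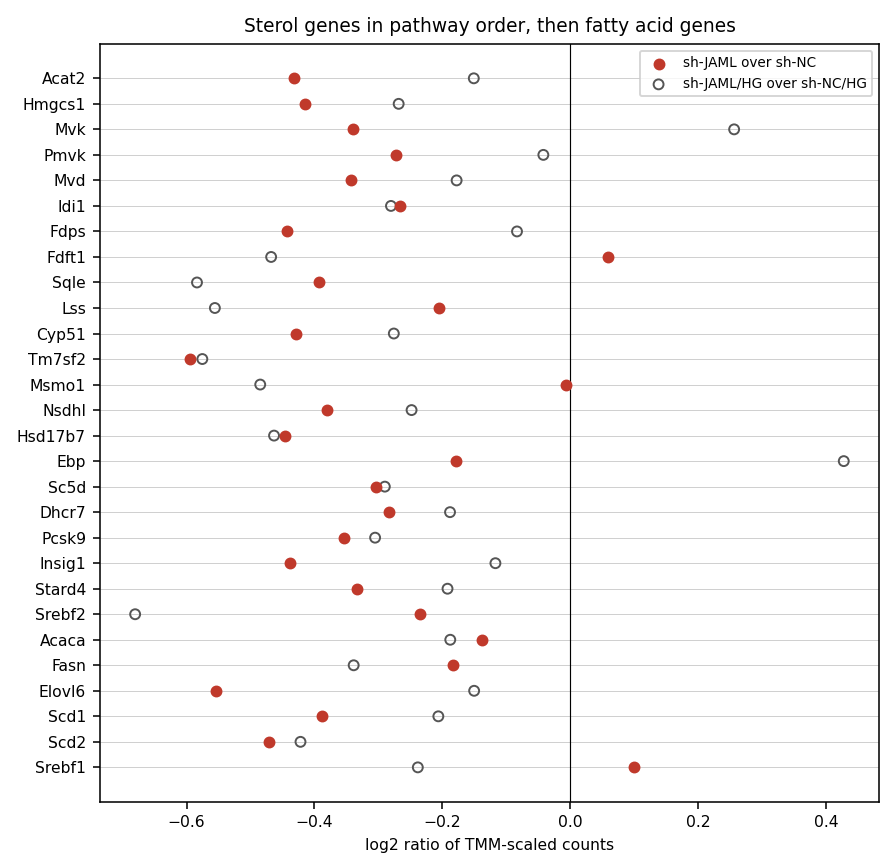
Log2 ratios (x axis) of sh-JAML over sh-NC (red points) and of sh-JAML/HG over sh-NC/HG (open circles) for sterol genes in pathway order, followed by 6 fatty acid genes, 1 library per group. In the basal pair the sterol genes shown lie left of 0 except Fdft1, which with Msmo1 lies near 0; the median of the whole list of 25 is -0.35.

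Fatty acid and triglyceride synthesis genes, 27 of 31 measured, were below 0 in 20 cases with a median of -0.14, and none was past 1.5-fold. Of the members of all lists 62.4% were below 0. Scd2 and Scd1, which desaturate stearoyl-CoA, had 466 and 280 CPM in sh-JAML, against 646 and 367 CPM in sh-NC. Elovl6, which elongates palmitate, had 69.3 CPM in sh-JAML, against 102 CPM in sh-NC. Fasn, fatty acid synthase, was 1.14-fold lower in sh-JAML (548 CPM, against 623 CPM in sh-NC), and Acaca, acetyl-CoA carboxylase, 1.10-fold lower (116 CPM, against 128 CPM). Srebf1 had 97.9 CPM in sh-JAML, against 91.4 CPM in sh-NC. The desaturases and Elovl6 thus stood further from 1 than Fasn, Acaca or Srebf1.

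Fatty acid oxidation genes had ratios near 0: 18 of 25 measured were above 0, where 50.3% of all genes were. Their median was 0.05. Ppargc1a, the coactivator of mitochondrial biogenesis, had 6.95 CPM in sh-JAML, against 4.601 CPM in sh-NC, with 5.59 CPM in sh-JAML/HG, against 3.69 CPM in sh-NC/HG. Its 1.51-fold ratio had a counting interval of 1.15 to 1.99. Cpt1a, which admits fatty acids to mitochondria, had 224 CPM in sh-JAML, against 203 CPM in sh-NC. In the list for uptake, efflux, storage and lipolysis, 11 of 21 were above 0. Vldlr, the VLDL receptor, was 1.42-fold higher in sh-JAML (448 CPM, against 315 CPM in sh-NC), and Plin2, a lipid droplet coat protein, had 259 CPM in sh-JAML, against 303 CPM in sh-NC. Abca1, a cholesterol efflux pump, was sparsely counted, with 1.73 CPM in sh-JAML, against 3.02 CPM in sh-NC. The deacetylase Sirt1 had 20.4 CPM in sh-JAML, against 23.01 CPM in sh-NC, a ratio of 1.13-fold lower whose counting interval, 0.984 to 1.29, includes 1.

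Targets of YAP and TEAD, the transcription factors that respond to cell tension and spreading, were lower in sh-JAML in the basal pair. All 20 were measured and 19 were below 0, where 49.6% of all genes and 62.4% of the members of all lists were. Their median was -0.21, and 4 were past 1.5-fold lower (3.90% of all genes were). In high glucose 11 of 20 were below 0 with a median of -0.03. The letters GGAATG, the TEAD site, were on either strand for 10 of the 14 genes with a promoter (71.4%). The share was 14.4% of all genes with a promoter, measured here or not, and 36.0% (9 of 25) for the actin and SRF list. The 14 genes were listed as known YAP and TEAD targets, so their share describes the list and not the ratios. The letters are in capitals in the promoters of Ankrd1 (chr19:36119845-36120094), Ccn1 (chr3:145649986-145650235), Acta2 (chr19:34255374-34255623) and Tpm1 (chr9:67049214-67049463), all on the minus strand (RefSeq, GRCm38.p6). CATTCC is the other strand. These genes are shown because they hold the letters, are abundant and were lower in sh-JAML, so they do not stand for their lists. Acta2 and Tpm1 are among the contractile genes described below.
Ankrd1: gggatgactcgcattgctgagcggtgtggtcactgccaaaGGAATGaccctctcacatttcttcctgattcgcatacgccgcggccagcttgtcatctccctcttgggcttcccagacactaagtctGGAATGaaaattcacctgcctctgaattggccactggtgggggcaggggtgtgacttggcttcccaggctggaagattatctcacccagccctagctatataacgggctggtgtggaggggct
Ccn1: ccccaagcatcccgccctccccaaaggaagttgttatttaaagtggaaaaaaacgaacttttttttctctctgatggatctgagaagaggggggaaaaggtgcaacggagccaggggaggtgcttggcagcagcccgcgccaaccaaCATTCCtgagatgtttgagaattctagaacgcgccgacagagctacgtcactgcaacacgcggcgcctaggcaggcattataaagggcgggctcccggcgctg
Acta2: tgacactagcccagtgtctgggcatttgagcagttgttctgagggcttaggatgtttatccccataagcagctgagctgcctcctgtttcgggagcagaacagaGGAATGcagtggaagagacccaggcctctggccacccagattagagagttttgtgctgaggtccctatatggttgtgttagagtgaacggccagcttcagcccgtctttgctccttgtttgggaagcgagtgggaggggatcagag
Tpm1: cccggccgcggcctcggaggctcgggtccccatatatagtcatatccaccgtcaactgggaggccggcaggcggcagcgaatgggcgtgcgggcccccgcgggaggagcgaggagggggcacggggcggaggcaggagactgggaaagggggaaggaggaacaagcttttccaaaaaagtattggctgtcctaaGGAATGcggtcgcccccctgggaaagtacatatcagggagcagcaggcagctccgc

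Ccn1, a secreted matricellular protein, had 587 CPM in sh-JAML, against 913 CPM in sh-NC, with 686 CPM in sh-JAML/HG, against 743 CPM in sh-NC/HG. Its basal ratio was 1.55-fold lower (1.52 to 1.59). Ankrd1, a titin-binding ankyrin repeat protein, had 148 CPM in sh-JAML, against 229 CPM in sh-NC, with 160 CPM in sh-JAML/HG, against 108 CPM in sh-NC/HG. Ccn2, connective tissue growth factor, had 183 CPM in sh-JAML, against 342 CPM in sh-NC, with 182 CPM in sh-JAML/HG, against 138 CPM in sh-NC/HG, and shared 23.2% of its exon bases with another gene. For Ankrd1 and Ccn2 the highest of the 4 libraries was sh-NC, and the sh-JAML library lay between the sh-NC/HG library and sh-NC. Tead1 itself had 30.5 CPM in sh-JAML, against 46.4 CPM in sh-NC.

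Contractile and SRF-dependent genes followed the same direction, with 25 of 29 measured below 0, where 62.4% of the members of all lists were. Their median was -0.18. In high glucose the median was -0.16, and 18 were below 0 in both pairs. Acta2, smooth muscle actin, had 729 CPM in sh-JAML, against 1069 CPM in sh-NC, with 742 CPM in sh-JAML/HG, against 677 CPM in sh-NC/HG. Tpm1, tropomyosin, had 1092 CPM in sh-JAML, against 1435 CPM in sh-NC. Tagln, an actin-binding protein, was 1.61-fold lower (536 CPM, against 864 CPM in sh-NC) but shared 67.9% of its exon bases. Cnn1, calponin, had 0.872 CPM in sh-JAML, against 2.27 CPM in sh-NC, and its log2 ratio was -1.37. Myl9, a myosin light chain, was the highest of the list with 44.8 CPM in sh-JAML, against 39.7 CPM in sh-NC.

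Immediate-early genes, which growth factors and adhesion switch on within minutes, were below 0 in 24 of 26 cases, with a median of -0.26. Of the members of all lists 62.4% were below 0 in the basal pair. In high glucose 13 of 26 immediate-early genes were below 0. Myc had 16.04 CPM in sh-JAML, against 28.0 CPM in sh-NC, with 18.6 CPM in sh-JAML/HG, against 12.1 CPM in sh-NC/HG, and was the only list member past 1.5-fold (1.74-fold lower, 1.52 to 2.01). Fos had 9.11 CPM in sh-JAML, against 13.0 CPM in sh-NC. Dusp6 and Dusp5, phosphatases of ERK, had 15.3 and 9.02 CPM in sh-JAML, against 21.7 and 12.9 CPM in sh-NC. Dusp5 shared 22.1% of its exon bases. Fos and Dusp6 were chosen after their values were seen. Egr1 had 230 CPM in sh-JAML, against 271 CPM in sh-NC, and Atf3 was level at 11.3 CPM in each.

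**Figure D4:**
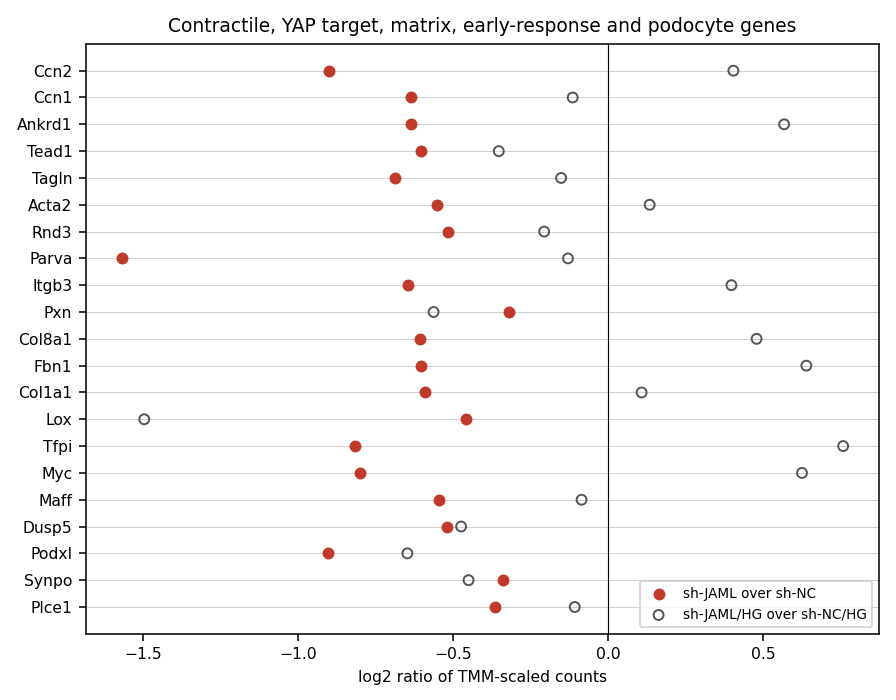
Log2 ratios (x axis) of sh-JAML over sh-NC (red points) and of sh-JAML/HG over sh-NC/HG (open circles) for contractile, YAP target, matrix, early-response and podocyte genes, 1 library per group. Most were taken as the lowest of their lists, so all 21 red points lie left of 0; the open circles lie on both sides, with Tfpi at 0.76 in high glucose and -0.82 in the basal pair.

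Matrix genes were mostly lower in sh-JAML. Of fibrillar and other matrix genes 27 of 38 were measured and 19 were below 0, with a median of -0.29, where 62.4% of the members of all lists were below 0. Past 1.5-fold were 5 lower and 2 higher, where 3.90% and 4.12% of all genes were. Col8a1 had 201 CPM in sh-JAML, against 306 CPM in sh-NC, with 197 CPM in sh-JAML/HG, against 141 CPM in sh-NC/HG. Fbn1, fibrillin, had 56.7 CPM in sh-JAML, against 86.1 CPM in sh-NC, with 56.8 CPM in sh-JAML/HG, against 36.5 CPM in sh-NC/HG, with 20.1% of its exon bases shared. In both genes the sh-JAML libraries were nearly equal, and sh-NC and sh-NC/HG were the highest and the lowest. Thbs1, thrombospondin, the most abundant of those named here (and named after its values were seen), had 2714 CPM in sh-JAML, against 3576 CPM in sh-NC. Col1a1 had 10.9 CPM in sh-JAML, against 16.4 CPM in sh-NC.

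Basement membrane genes were below 0 in 18 of 21 cases with a median of -0.15, where 62.4% of the members of all lists were below 0. Fras1, which anchors epithelium to the basement membrane, had 25.3 CPM in sh-JAML, against 48.2 CPM in sh-NC, with 20.5 CPM in sh-JAML/HG, against 25.4 CPM in sh-NC/HG. Col4a1, a chain of type IV collagen, was 1.26-fold lower in sh-JAML, with 1905 CPM against 2403 CPM in sh-NC. Integrins and focal adhesion genes were below 0 in 22 of 25 cases with a median of -0.11, led by Parva. Itgb3, the integrin beta 3 chain, had 19.0 CPM in sh-JAML, against 29.7 CPM in sh-NC, and the scaffold Pxn, paxillin, 201 CPM in sh-JAML, against 251 CPM in sh-NC. Itgb7 was the 1 member past 2-fold higher, at 0.860 CPM in sh-JAML, against 0.264 CPM in sh-NC.

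Matrix proteases and their inhibitors were below 0 in 19 of 24 cases with a median of -0.18, where 62.4% of the members of all lists were below 0. Adam12, a metalloprotease, had 1.81 CPM in sh-JAML, against 3.32 CPM in sh-NC. Adamts4, which cleaves aggrecan, had 39.2 CPM in sh-JAML, against 55.2 CPM in sh-NC, with 40.9 CPM in sh-JAML/HG, against 62.1 CPM in sh-NC/HG. Among 22 cadherin and desmosome genes the median was -0.11, and Cdh11 had 74.6 CPM in sh-JAML, against 115 CPM in sh-NC.

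Podocyte genes moved little. Of 39 listed genes 29 were measured and 21 were below 0, with a median of -0.06. Of the members of all lists 62.4% were below 0, with a median of -0.05. Podxl, the sialomucin that keeps foot processes apart, had 10.1 CPM in sh-JAML, against 18.9 CPM in sh-NC, with 15.2 CPM in sh-JAML/HG, against 23.8 CPM in sh-NC/HG. It was 1.87-fold lower in the basal pair (1.57 to 2.23) and 1.57-fold lower in high glucose. Synpo, synaptopodin of the foot process actin, had 172 CPM in sh-JAML, against 218 CPM in sh-NC, with 180 CPM in sh-JAML/HG, against 246 CPM in sh-NC/HG. Nes, nestin, had 394 CPM in sh-JAML, against 481 CPM in sh-NC. Wt1, the podocyte transcription factor, had 0.959 CPM in sh-JAML, against 1.17 CPM in sh-NC, where the counting interval of the ratio, 0.637 to 2.36 as sh-NC over sh-JAML, includes 1. Cd2ap and Tjp1, which anchor the slit diaphragm, were level at 301 and 220 CPM in sh-JAML, against 295 and 216 CPM in sh-NC.

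**Figure D5:**
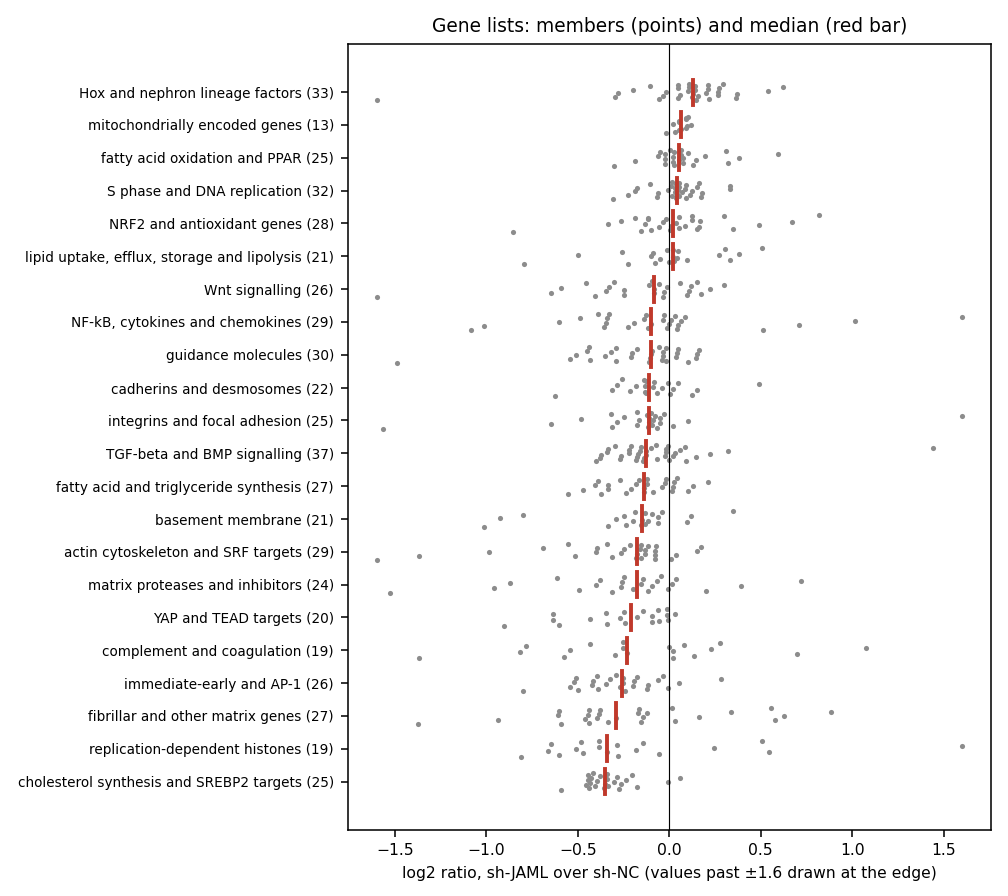
Log2 ratios of sh-JAML over sh-NC (x axis) for the measured members of 22 of the 48 gene lists, 1 point per gene, with the number measured after each name and the median as a red bar. Among lists with enough measured members, those with the highest and, in larger number, the lowest medians were taken. The figure therefore leans below 0 by choice. Sterol genes sit lowest with a median of -0.35 and Hox and nephron lineage factors highest with 0.13; members past the edge are drawn at it.

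The lists as a whole leaned below 0. Of the 1091 list genes measured, 62.4% were below 0 with a median of -0.05, where 50.5% of the 11036 protein-coding genes averaging 200 units or more were. A list's median is best read beside that value. Of type I interferon genes 23 of 36 were below 0 (median -0.04), and of interferon-gamma and MHC class I genes 21 of 31 (median -0.07), where the pair in high glucose had medians of -1.21 and -0.67. Irf1, an interferon-induced transcription factor, stood above its list with 86.7 CPM in sh-JAML, against 47.6 CPM in sh-NC, with 82.0 CPM in sh-JAML/HG, against 57.1 CPM in sh-NC/HG. NF-kB, cytokine and chemokine genes had a median of -0.10, and split into Cx3cl1 above and Tnfaip3 and Ccl2 below. Tnfaip3, the NF-kB inhibitor A20, had 16.8 CPM in sh-JAML, against 34.1 CPM in sh-NC, and Ccl2, a monocyte chemokine, 69.1 CPM in sh-JAML, against 105 CPM in sh-NC. Complement and coagulation genes had a median of -0.23, with C3 at 27.7 CPM in sh-JAML, against 41.2 CPM in sh-NC and Cd59a above 0. Tfpi of this list, an inhibitor of tissue factor, was 1.76-fold lower in sh-JAML (24.2 CPM, against 42.6 CPM in sh-NC).

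Cell cycle genes were near level: 24 of 32 S phase genes were above 0 (median 0.04), as were 18 of 32 G2 and mitosis genes (median 0.02). Of all genes 50.3% were above 0. The D cyclins differed in opposite directions. Ccnd1 had 36.0 CPM in sh-JAML, against 60.8 CPM in sh-NC, with 43.5 CPM in sh-JAML/HG, against 76.0 CPM in sh-NC/HG, with 23.4% of its exon bases shared, while Ccnd3 was higher in both sh-JAML libraries. Aen, a nuclease induced by p53, had 29.9 CPM in sh-JAML, against 66.9 CPM in sh-NC, with 63.1 CPM in sh-JAML/HG, against 25.7 CPM in sh-NC/HG. The p53 and apoptosis list had a median of -0.08.

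Of the stress lists, unfolded protein and ATF4 genes were below 0 in 28 of 35 cases with a median of -0.08. Of the members of all lists 62.4% were below 0, with a median of -0.05. Hspa5, the main chaperone of the endoplasmic reticulum, had 366 CPM in sh-JAML, against 707 CPM in sh-NC, with 384 CPM in sh-JAML/HG, against 523 CPM in sh-NC/HG. It was 1.93-fold lower (1.88 to 1.99), and was the only member of its list past 1.5-fold. Gpx1, a selenium-containing peroxidase, had 49.9 CPM in sh-JAML, against 90.1 CPM in sh-NC, 86.4 CPM in sh-JAML/HG and 91.5 CPM in sh-NC/HG. NRF2 and antioxidant genes had a median of 0.02, with both metallothioneins, which bind zinc and copper, above it.

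Mt1 had 698 CPM in sh-JAML, against 438 CPM in sh-NC, with 909 CPM in sh-JAML/HG, against 119 CPM in sh-NC/HG. It was 1.59-fold higher in the basal pair (1.55 to 1.64) and 7.63-fold higher in high glucose. Mt2 had 193 CPM in sh-JAML, against 109 CPM in sh-NC, with 241 CPM in sh-JAML/HG, against 41.1 CPM in sh-NC/HG, with 73.5% of its exon bases shared with another gene model. Both genes had both sh-JAML libraries above both sh-NC libraries. Metallothionein promoters are known for repeated metal response elements, so the Mt2 promoter is shown with TGCNCNC, searched on both strands, in capitals (chr8:94172368-94172617, plus strand, RefSeq, GRCm38.p6). The letters occur 5 times there. Of all genes with a promoter 47.2% hold them at least 1 time, and the share holding them 5 times was not counted. The pattern is loose, so a match is only these letters and not an identified metal response element.
Mt2: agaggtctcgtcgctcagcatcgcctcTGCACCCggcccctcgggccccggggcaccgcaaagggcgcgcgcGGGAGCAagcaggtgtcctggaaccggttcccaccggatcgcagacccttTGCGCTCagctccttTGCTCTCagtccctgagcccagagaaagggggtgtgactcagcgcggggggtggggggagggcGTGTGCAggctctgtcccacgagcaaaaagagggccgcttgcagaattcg

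Hox and nephron lineage factors had a median of 0.13, the highest of any list apart from 4 measured erythroid genes (0.14). Of 33 measured 25 were above 0, where 50.3% of all genes were. In high glucose the median was -0.05. Hoxa9 had 61.8 CPM in sh-JAML, against 42.5 CPM in sh-NC, with 51.6 CPM in sh-JAML/HG, against 44.0 CPM in sh-NC/HG. Hoxb8 was 1.54-fold higher in sh-JAML (22.6 CPM, against 14.7 CPM in sh-NC). Mitochondrially encoded genes were above 0 in 12 of 13 cases with a median of 0.07, against 1.003 in high glucose, where all 13 were above 0; they took 2.08% of the counts in sh-JAML and 1.95% in sh-NC. Glycolysis and hypoxia genes had a median of -0.02 in the basal pair and -0.57 in high glucose. Gapdh had 534 CPM in sh-JAML, against 417 CPM in sh-NC, with 485 CPM in sh-JAML/HG, against 571 CPM in sh-NC/HG. Txnip, an inhibitor of thioredoxin that glucose induces, was 1.15-fold lower in sh-JAML (151 CPM, against 173 CPM in sh-NC). Txnip shared 19.4% of its exon bases. Wnt, TGF-beta and BMP, and guidance genes had medians of -0.08, -0.13 and -0.10, each with 1 member past 2-fold: Wnt7b and Efna1 lower in sh-JAML, and the growth factor Bmp7 higher at 1.52 CPM, against 0.553 CPM in sh-NC.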

How the data were processed

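RNA-seq was done on 4 cultures of MPC podocytes, 1 library each, following the TruSeq RNA guide per the labels' protocols. Per the submitters' processing notes, CASAVA 1.8 and TopHat2 2.0.6 were used with build mm10. The authors deposited unscaled estimated counts for Ensembl genes; which tool and annotation they used was not given in the sources. The 2 control columns carry no hairpin name and were taken as sh-NC and sh-NC/HG from their condition. The design text counts 4 samples with and 4 without glucose; 4 libraries in all were analysed.

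Of 56393 genes, 27916 were 0 in every library, and a last line without a gene was dropped. Multiples of 4 were overrepresented among low values, so 4 units were taken as 1 fragment. Intervals (exact 95%, Clopper-Pearson, given the summed count) and the floor of 3 fragments, or 12 units, use fragments and cover counting error only, since the labels name no molecular identifiers. Ratios use the values as deposited, scaled with TMM factors of 0.987 to 1.01 (R 4.3.3, edgeR 4.0.16) and, on the log2 scale, a prior count of 1. Folds are ratios of scaled CPM. GENCODE M21 matched 55394 genes and left 999 without a symbol, and gave positions and shared exon bases. Other values came from Python 3.11.15 with numpy 2.4.6, pandas 2.3.3, scipy 1.17.1 and matplotlib 3.10.9. The intervals were tested on simulated data with counting error only, the error they assume, so that test says nothing about spread between cultures. No p-value was computed, because groups of 1 library give no spread.

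The genes named are a set of lipid and podocyte regulators, the 15 highest and 15 lowest ratios averaging 200 units over the pair, the 10 highest and 10 lowest at 5000, and in each list the 3 highest and 3 lowest members at 200; not all are printed, some genes the rule took are not reported here, and models without a named role were counted only. A few other members are given as examples of their list, or chosen after their values were seen. The 48 lists hold 1329 symbols, 34 of them in more than 1 list. The members and lists were chosen with earlier results of these data known. Alternatives were other scalings (DESeq2 1.42.0 size factors, TMM from the pair alone, total counts), a prior count of 5, minimum counts of 10, 200 or none, and genes with under 10% shared exon bases, the last for list medians added after seeing the data.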

Additional observations from a re-analysis of the deposited data

Results flagged for a closer look

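Listed here are the named genes that were at least 2-fold apart in opposite directions in the basal pair and in the pair in high glucose, among those averaging 200 units or more with under 10% shared exon bases, and the lists whose medians had opposite signs and a size of at least 0.25 in both. Other genes above reversed by less or, as Zfp7, shared more exon bases. With 1 library per group the difference between the pairs was not tested. Prkacb had a log2 ratio of 1.07 for sh-JAML over sh-NC and -1.15 for sh-JAML/HG over sh-NC/HG. Wnt7b had -1.73 in the basal pair and 1.02 in high glucose. Aen had -1.16 in the basal pair and 1.30 in high glucose. The median of 19 measured replication-dependent histone genes was -0.34 in the basal pair and 0.81 in high glucose. In the basal pair 15 were below 0, where 62.4% of the members of all lists were, and in high glucose 3 were. Of the 19 histone genes 9 had a mean count of at least 200.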

How the results depend on the processing

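No paired analysis was possible because each group had 1 library. The counts of genes apart depended on the count minimum. At a mean count of at least 10, 856 genes were at least 2-fold higher in sh-JAML and 853 lower, with 1681 and 1575 at 1.5-fold. At 200 they were 60 and 77, with 247 and 231 at 1.5-fold. With no minimum they were 3938 and 3380, with 5109 and 4435 at 1.5-fold. Among genes with under 10% shared exon bases 113 were 2-fold higher and 131 lower. Scaling by total counts shifted the median of all genes by 0.036 on the log2 scale; under it the list medians were -0.076 for integrins and focal adhesion, 0.030 for autophagy and lysosome, 0.052 for the nuclear respiratory chain, 0.10 for mitochondrially encoded genes and 0.030 for ribosomal proteins, so autophagy and ribosomal genes changed sign about 0. These 5 left the 95% order-statistic interval of the median over the list's members, and the other 329 list medians over the alternatives stayed within theirs. That interval is wide: the largest shift of a list median was 0.120 with under 10% shared exon bases, 0.115 at a minimum of 10 and 0.063 at 200, more than many of the medians reported. Of the ratios of named genes 1388 stayed within their counting interval and 16 did not, all under total counts. Depth limits genes with few fragments: at 12 units the floor was 0.150 CPM in sh-JAML, against 0.151 CPM in sh-NC.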

Other observations

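A pair of transcripts outside the lists, named after their values were seen, were near the floor in both sh-JAML libraries. Mir155hg, the host transcript of a microRNA active in immune cells, had 3 units of count in sh-JAML, against 91 in sh-NC, and 2 in sh-JAML/HG, against 183 in sh-NC/HG. Usp50, annotated as a ubiquitin-specific peptidase, had 6 units in sh-JAML, against 245 in sh-NC, and 23 in sh-JAML/HG, against 337 in sh-NC/HG. In these transcripts sh-JAML was under the 12 units that a count of 0 allows. Amigo1, an adhesion molecule with leucine-rich repeats, had 9.47 CPM in sh-JAML, against 22 CPM in sh-NC, with 6.74 CPM in sh-JAML/HG, against 41.4 CPM in sh-NC/HG. Cenpx, a histone-fold protein of centromeres and DNA repair, had 7.59 CPM in sh-JAML, against 17.0 CPM in sh-NC, with 7.33 CPM in sh-JAML/HG, against 18.7 CPM in sh-NC/HG. Fn3k had 4.72 CPM in sh-JAML, against 1.94 CPM in sh-NC, with 4.24 CPM in sh-JAML/HG, against 1.30 CPM in sh-NC/HG.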
